A study of Homo sapiens with 6 samples.

Results

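The long non-coding RNA genes SNHG1, SNHG5, SNHG6, SNHG7, SNHG8, SNHG12, SNHG15, SNHG16, GAS5 and ZFAS1, which carry small nucleolar RNAs (snoRNAs) in their introns, were followed in MV4-11 cells. They were chosen by name, and all 10 were found by their Ensembl identifiers among the 61806 genes of the count table. MV4-11 is a human acute myeloid leukaemia line that carries an internal tandem duplication in FLT3. RNA sequencing compared 3 libraries with a control shRNA (shNC 1 to 3) with 3 libraries whose labels name an shRNA to ATGL, the triglyceride lipase encoded by PNPLA2 (shATGL 1 to 3). The shRNAs were delivered by lentivirus, and the labels do not say which of the study's shRNA sequences each shATGL library carries. The study used the comparison to ask which genes change when this lipase is knocked down.

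A snoRNA host gene is transcribed by RNA polymerase II and spliced, and the snoRNAs are trimmed out of the removed introns. The C/D class of snoRNAs guides 2′-O-methylation of ribosomal RNA with fibrillarin, and the H/ACA class guides pseudouridylation with dyskerin. The spliced host transcript usually holds no long open reading frame, and it is typically degraded in the cytoplasm by nonsense-mediated decay, a pathway that needs translation. Many hosts, like ribosomal protein genes, start with a terminal oligopyrimidine tract, a run of C and T at the transcription start through which growth signals set translation. Host RNA levels are therefore known to respond to both growth state and translation.

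Total counts lay between 59674064 and 74808280 per library. PNPLA2, the targeted gene, was at 102 ± 5.10 CPM (counts per 1e+06 counts of the library; SD, n = 3) in shNC and at 101 ± 2.96 CPM in the libraries labelled shATGL. Its log2 fold change was −0.01, with an adjusted p of 0.979 by edgeR's quasi-likelihood test. In these libraries the label was therefore not borne out by the RNA of its target. The study itself reported lower ATGL protein and RNA after knockdown in MV4-11 cells, by western blot and RT-qPCR. The myeloid genes CD33 (82.0 to 87.2 CPM), ITGAM (85.9 to 97.2 CPM) and LYZ (715 to 889 CPM) were present in every library. CD14, a monocyte marker, stayed at or below 0.286 CPM, and CD3D, MS4A1, HBB and EPCAM, which mark other cell types, were at 0. shATGL 3 stood apart from its group. On the first principal component, which held 66.0% of the variance, shATGL 1 and 2 lay at 20.3 and 21.0, whereas shATGL 3 lay at −14.7 and the shNC libraries between −16.7 and −3.06. The library nearest to shATGL 3 was shNC 1. The members' fold changes, calls and non-overlap count, and the calls in the other lists, are therefore also given without it. The correlations, the length bins and the values of single other genes include it.

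To show what the hosts share at their starts, the 40 bases before and the 30 bases from each annotated start are printed for the 8 members with an entry among the RefSeq promoters (GRCh38.p14), from 5′ to 3′ on the strand of the gene. Capitals mark TATAA where it lies in the 40 bases before the start, and a run of at least 5 C or T that covers the first transcribed base.
SNHG1, chr11:62855856-62855925, minus strand: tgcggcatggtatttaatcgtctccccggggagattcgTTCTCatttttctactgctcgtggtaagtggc
SNHG5, chr6:85678704-85678773, minus strand: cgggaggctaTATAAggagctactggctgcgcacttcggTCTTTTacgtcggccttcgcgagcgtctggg
SNHG7, chr9:136728155-136728224, minus strand: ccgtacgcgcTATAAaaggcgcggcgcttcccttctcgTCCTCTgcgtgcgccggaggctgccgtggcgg
SNHG8, chr4:118278722-118278791, plus strand: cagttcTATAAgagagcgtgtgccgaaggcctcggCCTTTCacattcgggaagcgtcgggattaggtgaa
SNHG12, chr1:28581844-28581913, minus strand: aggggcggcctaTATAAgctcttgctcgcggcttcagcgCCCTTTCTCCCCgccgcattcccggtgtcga
SNHG16, chr17:76557724-76557793, plus strand: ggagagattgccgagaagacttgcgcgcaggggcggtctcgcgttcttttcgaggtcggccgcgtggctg
GAS5, chr1:173869016-173869085, minus strand: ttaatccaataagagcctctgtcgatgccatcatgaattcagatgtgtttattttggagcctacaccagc
ZFAS1, chr20:49278602-49278671, plus strand: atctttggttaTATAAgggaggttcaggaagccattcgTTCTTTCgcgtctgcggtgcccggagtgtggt

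TATAA, the core of the TATA box, stood on the gene's strand in these 40 bases in 5 of the 8 members. Over all 35116 RefSeq promoter entries the share was 4.34%, and on the opposite strand it was 2.23%. A run of at least 5 pyrimidines covered the first base in 6 of the 8 members and in 9.6% of all entries. Both features stood together in SNHG5, SNHG7, SNHG8, SNHG12 and ZFAS1, and in 0.339% of all entries. The GAS5 window lies wholly upstream of the gene as GENCODE 29 draws it. The windows of SNHG8, SNHG12 and ZFAS1 lie wholly inside the gene, downstream of its outermost GENCODE 29 start. For these members the letters describe the RefSeq start only. These matches describe the sequence and are not measured start sites.

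SNHG1, SNHG5, SNHG6, SNHG16, GAS5 and ZFAS1 carry snoRNAs of the C/D class, SNHG7, SNHG8 and SNHG15 carry those of the H/ACA class, and SNHG12 carries both. Levels in this comparison are in CPM of the TMM-normalized library size, and log2 fold changes are shATGL minus shNC from edgeR's quasi-likelihood fit with their standard error (SE). Over the 10 members together, the summed level was 1090, 1059 and 1158 CPM in shNC 1 to 3 and 994, 990 and 984 CPM in shATGL 1 to 3. The shATGL sum was lower in every library and averaged 89.8% of the shNC sum. As a share of the plain library totals it averaged 93.4% of the shNC share, so the size of the difference depends on the scaling. No member passed an adjusted p of 0.05 over the 19149 genes tested, a threshold that 0.00522% of all genes passed (1 gene). The fold changes were below 0 in 9 of the 10 members, against 48.1% of all genes. An unadjusted p under 0.05 with a lower level was reached by 3 members, SNHG5, SNHG6 and ZFAS1, and by 5.94% of all genes. No member reached it with a higher level, as 5.77% of all genes did, so the count in either direction was also 3, against 11.7% of all genes. All 3 shATGL values lay below all 3 shNC values in 6 members and in 9.38% of all genes, and no member had the opposite order, which 7.93% of all genes had. With plain library totals in place of TMM, 3 members were lower without overlap and 1 was higher, against 6.07% and 11.8% of all genes. With TMM but without shATGL 3, 7 members were lower without overlap, when 24.1% of all genes were. With all 6 libraries the exact permutation test over 20 relabellings could not fall below 0.1, and without shATGL 3 there are fewer relabellings.

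SNHG5 (ENSG00000203875, chr6:85660950-85678748, minus strand, GENCODE 29 on GRCh38), the host of SNORD50A and SNORD50B, was at 133, 131 and 148 CPM in shNC and at 115, 111 and 114 CPM in shATGL. The groups did not overlap, and the shATGL libraries were close to each other. The mean in shATGL was 82.3% of that in shNC (log2 fold change −0.28, SE 0.066, unadjusted p = 0.00305, adjusted p = 0.392 by edgeR).

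ZFAS1 (ENSG00000177410, chr20:49278178-49295738, plus strand), the host of the SNORD12 family at the antisense side of ZNFX1, was at 78.2, 68.2 and 80.1 CPM in shNC and at 60.7, 62.1 and 63.3 CPM in shATGL. The lowest control value, that of shNC 2, was still above every shATGL value. The mean in shATGL was 82.1% of that in shNC (log2 fold change −0.28, SE 0.078, unadjusted p = 0.00698, adjusted p = 0.392 by edgeR).

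SNHG6 (ENSG00000245910, chr8:66921684-66926398, minus strand), the host of SNORD87, was at 168, 163 and 194 CPM in shNC and at 141, 141 and 153 CPM in shATGL. shNC 3 was well above the other controls, and without overlap all shATGL values were lower. The mean in shATGL was 82.7% of that in shNC (log2 fold change −0.27, SE 0.081, unadjusted p = 0.0101, adjusted p = 0.392 by edgeR).

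SNHG16 (ENSG00000163597, chr17:76557766-76565348, plus strand), the host of the SNORD1 family, was at 136, 136 and 152 CPM in shNC and at 114, 121 and 139 CPM in shATGL. Here shATGL 3 lay above shNC 1 and 2, so the groups overlapped, while shATGL 1 and 2 were the lowest libraries. Its log2 fold change was −0.18 (SE 0.090, unadjusted p = 0.0776, adjusted p = 0.464 by edgeR).

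SNHG1 (ENSG00000255717, chr11:62851988-62855914, minus strand), the host of SNORD22 and of SNORD25 to SNORD31, was at 136, 129 and 129 CPM in shNC and at 124, 126 and 109 CPM in shATGL. The groups did not overlap, although shATGL 2 was close to shNC 2 and 3, and shATGL 3 was the lowest. The log2 fold change was −0.14 (95% confidence interval −0.31 to 0.03, adjusted p = 0.492 by edgeR).

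GAS5 (ENSG00000234741, chr1:173863900-173868882, minus strand), known as a transcript that accumulates in growth-arrested cells and hosts several C/D snoRNAs, was at 221, 220 and 221 CPM in shNC and at 227, 221 and 198 CPM in shATGL. The controls were almost equal, with an SD of 0.252 CPM, and the shATGL values spread to both sides of them with an SD of 15.1 CPM. Its log2 fold change was −0.03, with a 95% confidence interval of −0.19 to 0.12, and its adjusted p was 0.853 by edgeR.

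In the members with H/ACA snoRNAs alone the log2 fold changes lay between −0.11 and −0.09. SNHG7 (ENSG00000233016, chr9:136721366-136728184, minus strand), the host of the SNORA17 pair, was at 66.3, 63.8 and 70.4 CPM in shNC and at 61.4, 61.3 and 63.1 CPM in shATGL. The groups did not overlap, but the gap between shATGL 3 and shNC 2 was small. The log2 fold change was −0.11 (95% confidence interval −0.26 to 0.04, adjusted p = 0.524 by edgeR), and −0.07 without shNC 3.

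SNHG15 (ENSG00000232956, chr7:44983023-44986961, minus strand), the host of SNORA9, was at 51.4, 51.5 and 53.8 CPM in shNC and at 47.4, 49.8 and 50.5 CPM in shATGL. All shATGL values were lower by a narrow margin. The log2 fold change was −0.09 (95% confidence interval −0.24 to 0.07, adjusted p = 0.610 by edgeR).

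SNHG8 (ENSG00000269893, chr4:118278709-118279823, plus strand), the host of SNORA24, was at 67.1, 64.2 and 73.5 CPM in shNC and at 65.9, 63.8 and 59.6 CPM in shATGL. The groups overlapped, since shATGL 1 was above shNC 2. The log2 fold change was −0.11 (95% confidence interval −0.29 to 0.07, adjusted p = 0.566 by edgeR), and −0.06 without shNC 3.

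SNHG12 (ENSG00000197989, chr1:28578538-28583132, minus strand) hosts snoRNAs of both classes and was the member with the opposite sign. It was at 32.3, 31.5 and 35.1 CPM in shNC and at 37.4, 33.9 and 34.7 CPM in shATGL. shNC 3 lay within the range of shATGL, so the groups overlapped. The log2 fold change was 0.10 (95% confidence interval −0.09 to 0.29, adjusted p = 0.632 by edgeR), and 0.06 without shATGL 1.

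**Figure D1:**
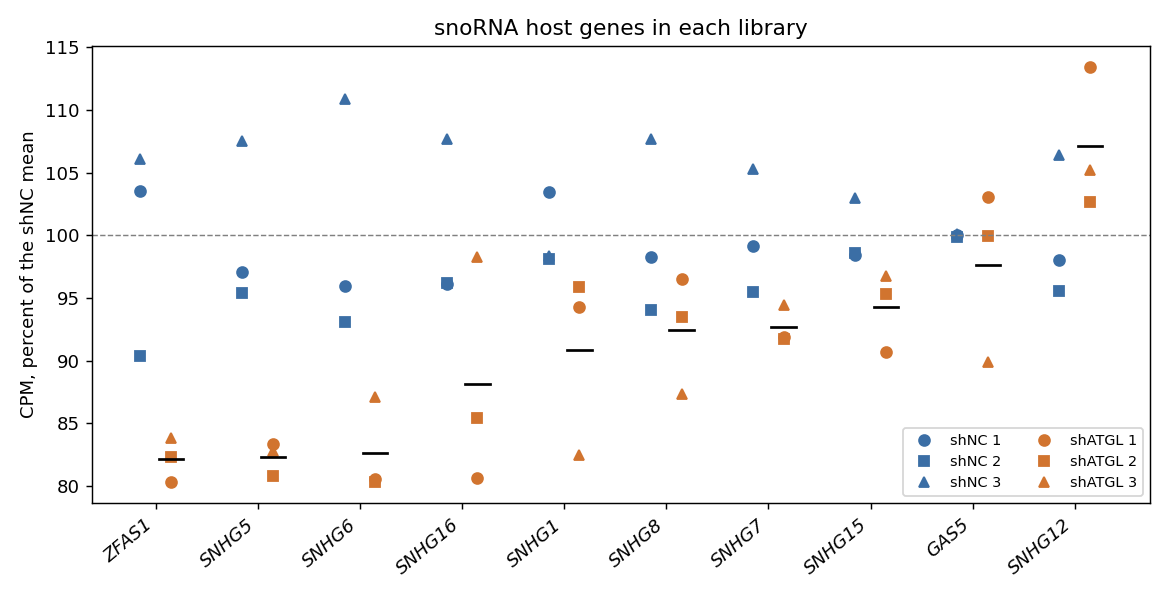
Each host gene's CPM in each library as a percent of its shNC mean (vertical axis), with blue markers for shNC, orange markers for shATGL and black bars for the shATGL mean. The shATGL means of ZFAS1, SNHG5 and SNHG6 sit at 82.1%, 82.3% and 82.7%, and that of SNHG12 at 107%.

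Without shATGL 3, edgeR called 4 members lower at an adjusted p under 0.05, when 2795 of 19954 genes tested (14.0%) passed in either direction. They were SNHG5 (log2 fold change −0.29, adjusted p = 0.0260), SNHG6 (−0.32, 0.0344), SNHG16 (−0.27, 0.0344) and ZFAS1 (−0.30, 0.0388). SNHG5, SNHG6 and ZFAS1 thus changed in size by little, and SNHG16 fell further. GAS5 turned from −0.03 to 0.02, and SNHG1 moved from −0.14 to −0.07. With all 6 libraries weighted by their quality in limma voom, the same 4 members were called, with adjusted p-values of 0.0285 for SNHG5, 0.0332 for SNHG6, 0.0361 for ZFAS1 and 0.0490 for SNHG16. That fit called 2076 of the 19149 genes (10.8%). None reached a fold change of 2 in either fit. Without shNC 3 the log2 fold changes were smaller in size, at −0.23 (SNHG5), −0.19 (SNHG6), −0.24 (ZFAS1) and −0.13 (SNHG16). No member was called by edgeR there, nor was any other gene.

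**Figure D2:**
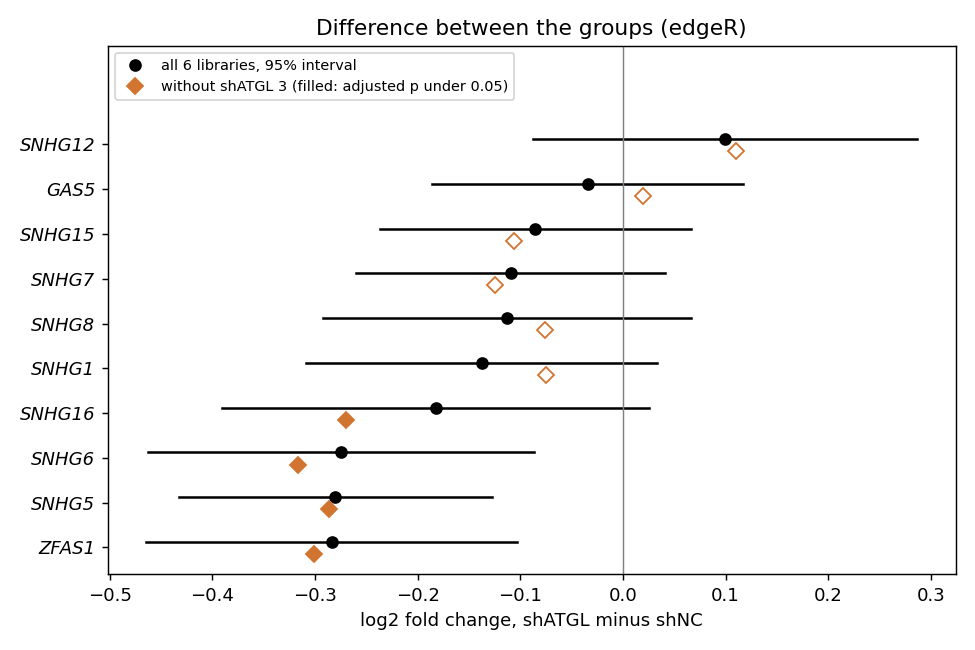
The log2 fold change of each host gene, shATGL minus shNC, with all 6 libraries (black, bars for the 95% confidence interval) and without shATGL 3 (orange, no interval, filled where edgeR's adjusted p was under 0.05). With all libraries the intervals of SNHG5, SNHG6 and ZFAS1 lie below 0, and that of SNHG12 runs from −0.09 to 0.29.

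Levels were compared between members only after division by the length of the gene's annotated exons, in CPM per kilobase. SNHG6 stood first with 141 ± 13.4 CPM per kilobase (SD, n = 3) in shNC, followed by SNHG8 with 74.0 ± 5.18, GAS5 with 60.8 ± 0.0694 and SNHG5 with 48.9 ± 3.21. SNHG1 (35.0 ± 1.06 CPM per kilobase) and ZFAS1 (33.7 ± 2.84) came next, and their shNC values overlapped. SNHG16 was at 26.4 ± 1.76 CPM per kilobase. SNHG7 (15.4 ± 0.759) and SNHG15 (14.3 ± 0.368) overlapped in shNC as well, and SNHG12 was last with 7.73 ± 0.440. The order was the same in shATGL, where SNHG6 was at 116 ± 5.46 and SNHG12 at 8.28 ± 0.435 CPM per kilobase. From SNHG6 to SNHG12 the members stood at the 98.5th to 71.4th percentile of all tested genes. The order depended on the length used. With the median length of the annotated transcripts GAS5 came first with 321 CPM per kilobase, SNHG6 second with 313, and SNHG8, second by exonic length, came after SNHG1 with 145, and the ratio of the highest to the lowest fell from 18.2 to 10.6.

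**Figure D3:**
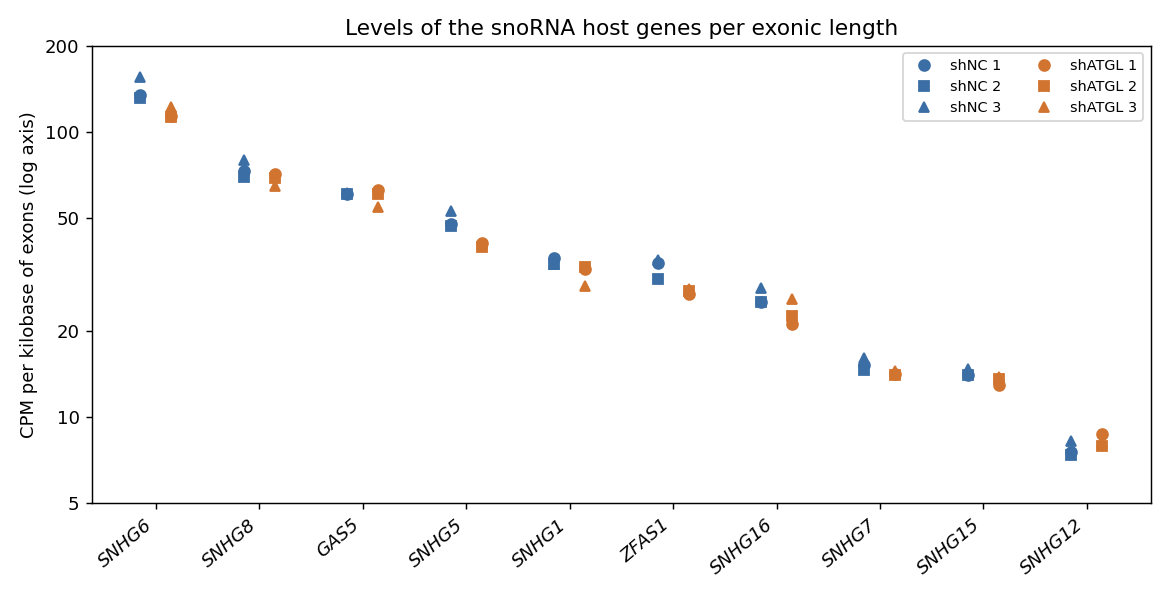
CPM per kilobase of annotated exon for each host gene (log axis), 3 shNC and 3 shATGL libraries as points. SNHG6 is the highest in both groups and SNHG12 the lowest, with means of 141 and 7.73 CPM per kilobase in shNC.

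The members are spliced in many ways in the annotation, which matters for how reads are counted. GENCODE 29 lists 136 transcripts for them, with 29 for GAS5, 25 for SNHG1 and 23 for SNHG5 but 4 for SNHG7, where the median over all genes is 1. Of these, 48 are transcripts with a retained intron, in 6 of the 10 members, while 16.6% of all genes have such a transcript. The table counts genes, so spliced and retained transcripts could not be separated.

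Fold changes in these libraries moved with the length of the gene, except among the shortest genes. When tested genes were ranked by exonic length and put into 10 bins of equal size, the median log2 fold change was −0.0011 in the bin of the shortest genes, −0.08 in the bin from 907 to 1762 bases, −0.01 in the bin that holds SNHG7 and SNHG12, and 0.12 among the longest genes. Across 18566 genes Spearman's rho between fold change and length was 0.194, given as a description since genes are not independent replicates. Against the median of its own bin, the log2 fold change of SNHG5 was lower by a difference of −0.21, that of ZFAS1 by −0.20, that of SNHG6 by −0.20 and that of SNHG16 by −0.19. SNHG1 and SNHG7 differed by −0.10 each, SNHG15 by −0.05 and SNHG8 by −0.04. GAS5 was at its bin's median (difference 0.00) and SNHG12 above it (0.11).

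Level was then combined with length. Among 4716 tested genes with at least 10 CPM and an exonic length within the members' range (923 to 5362 bases), 73.2% were lower in shATGL, with a median of −0.09. In that set 16.4% were lower at an unadjusted p under 0.05 and 21.3% had lower shATGL values without overlap, shares above those over all genes. With the length range alone 56.9% of genes were lower, and with at least 10 CPM alone 55.3%. The 10th percentile of the set was −0.24, and SNHG5, SNHG6 and ZFAS1 lay below it. With the trends of length and GC content removed in each library, SNHG1, SNHG5, SNHG6, SNHG7 and ZFAS1 were lower at an unadjusted p under 0.05. So were 10.7% of all genes, and no member was called by edgeR. That fit moved all genes downward, to a median of −0.054, against −0.17 for the members. At that p 2054 genes were lower and 887 higher, against 1138 and 1105 in the main fit.

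The members varied together across libraries to different degrees. Of the 45 pairs, 36 had a Pearson's r above 0 over the log2 CPM of the 6 libraries, with a median of 0.602. These points share the libraries and the difference between the groups, and after each group's mean was subtracted 31 pairs were above 0 with a median of 0.510. SNHG6 and SNHG7 were closest (0.984), and SNHG5 and SNHG6 followed each other as well (0.964). SNHG12 and SNHG15 gave the lowest value (−0.503). shNC 3 held the highest value of all 6 libraries in 7 members.

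The genes outside the lists whose log2 CPM was most like the mean of the members were RPL11, a large-subunit ribosomal protein (r = 0.997), PARK7, a redox-sensitive protein also called DJ-1 (0.995), JOSD2, a deubiquitinase (0.993), MYL12A, a myosin light chain (0.991), and TAF10, a subunit of TFIID (0.991). These are the first of 9212 genes with at least 10 CPM compared over the 6 libraries, of which 111 had an r above 0.95.

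The snoRNAs themselves were scarcely present in the table. It held 26 snoRNA genes inside 9 members, and no snoRNA gene could be matched to GAS5. Of the 26, 18 were listed at exactly 1 in all 6 libraries. Among all 31989 genes with a count, 390 were listed so, and among the 410 snoRNA genes with a count 117 were. A value that is the same whatever the depth of the library is unusual for a raw count, and how the counting made it is not given in the sources used here. Of the 26, 21 lay in full within an annotated exon of their host, and 17 of these were among those at exactly 1. Only SNORD12C, SNORD12B, SNORD1B, SNORD99, SNORA24 and SNORD87 reached 2 counts in any library. The sequences of 4 of them are printed from GENCODE 29 (GRCh38), 5′ to 3′, because they reached 2 counts and lie outside every annotated exon of their host. Capitals mark the C box TGATGA in the first 20 bases and the D box CTGA in the last 15, the letters that the C/D proteins recognise.
SNORD12C in ZFAS1, chr20:49278940-49279028, plus strand: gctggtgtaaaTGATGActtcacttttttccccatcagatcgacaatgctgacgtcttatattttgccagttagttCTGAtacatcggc
SNORD12B in ZFAS1, chr20:49280319-49280409, plus strand: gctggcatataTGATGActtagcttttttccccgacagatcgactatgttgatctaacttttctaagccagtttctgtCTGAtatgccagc
SNORD1B in SNHG16, chr17:76561109-76561192, plus strand: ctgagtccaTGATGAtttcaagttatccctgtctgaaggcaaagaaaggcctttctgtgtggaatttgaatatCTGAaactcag
SNORD99 in SNHG12, chr1:28578749-28578822, minus strand: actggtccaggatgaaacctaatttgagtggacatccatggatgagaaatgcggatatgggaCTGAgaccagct

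Both boxes in these letters were found in 9 of the 16 C/D snoRNAs inside members and in 64.2% of the 288 C/D snoRNA transcripts searched. Counts of SNORD12C were 3, 3 and 2 in shNC against 6, 2 and 5 in shATGL, and those of SNORD1B were 2, 2 and 8 against 2, 6 and 5. At such numbers no difference was detectable. SNORD99 was the only snoRNA of the members that passed the filter on low counts, at counts of 7, 7 and 6 in shNC against 13, 15 and 9 in shATGL. Its groups did not overlap, and its log2 fold change was 0.80 (unadjusted p = 0.180, adjusted p = 0.565 by edgeR). Adding the snoRNA counts to the host changed no member's direction.

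Genes on the opposite strand overlap several members, and reads could be shared because the strand setting of the counting is not given in the sources used here. ZNFX1, an RNA helicase-like antiviral factor that overlaps ZFAS1 by 249 exonic bases, was at 57.0 CPM in shNC and 60.5 CPM in shATGL (log2 fold change 0.09). DIPK1B, which overlaps SNHG7 by 1094 exonic bases, went from 23.9 to 19.0 CPM (−0.33, unadjusted p = 0.0194 by edgeR). MCMDC2, which overlaps SNHG6 by 365 exonic bases, went from 0.362 to 0.709 CPM (0.96, unadjusted p = 0.0387 by edgeR). TRNAU1AP, a selenocysteine tRNA-binding protein gene that overlaps SNHG12 by 8 exonic bases, went from 22.3 to 19.0 CPM (−0.23, unadjusted p = 0.0452 by edgeR). GAS5-AS1, with 42 shared exonic bases, was at 0.527 and 0.817 CPM. The largest exonic overlap was that of ENSG00000284526 with SNHG16, at 1639 bases. ENSG00000284526 went from 1.92 to 1.17 CPM (−0.72, unadjusted p = 0.143 by edgeR). The part of shared reads in the values of SNHG7 was not tested. The levels of MCMDC2, GAS5-AS1 and ENSG00000284526 were far below those of SNHG6, GAS5 and SNHG16, in that order.

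Other genes of the pathway were taken from 4 lists. Of the 20 other hosts listed as non-coding, 17 were tested, since SNHG18, SNHG22 and SNHG28 had too few counts. Their fold changes were below 0 in 9 and above 0 in 8, with a median of 0.00. At an unadjusted p under 0.05, 3 were lower, as were 5.94% of all genes. SNHG29 went from 550 ± 40.8 to 469 ± 41.1 CPM (log2 fold change −0.23, unadjusted p = 0.0251 by edgeR), SNHG32, which GENCODE 29 classes as protein-coding, from 288 to 248 CPM (−0.22, 0.0263) and DANCR from 67.0 ± 1.34 to 57.7 ± 5.56 CPM (−0.21, 0.0325). Without shATGL 3 these 3 were called lower and SNHG14 higher, when 14.0% of all genes were called in either direction. The smallest adjusted p with all libraries was 0.396.

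The list with the lowest median was that of protein-coding hosts, mostly genes of ribosomal proteins and translation factors. Of 29 tested, 27 were below 0, 22 were lower at an unadjusted p under 0.05 (5.94% of all genes) and 18 had lower shATGL values without overlap (9.38% of all genes). Their median log2 fold change was −0.25, against −0.13 for the 10 members and 0.01 for all genes. RPL21 went from 618 to 503 CPM (−0.30, unadjusted p = 0.00138 by edgeR), RPL23A from 718 to 591 CPM (−0.28, 0.00366) and RPS13 from 596 to 473 CPM (−0.33, 0.00491). None passed the adjusted threshold, the smallest adjusted p being 0.392. Without shATGL 3 edgeR called 22 of them lower and 2 higher, against 14.0% of all genes in either direction. Ribosomal protein genes have many near-identical pseudogenes, and how reads with several matches were counted is not given in the sources used here.

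Of 17 proteins that assemble and bind snoRNAs, 14 were below 0 and 4 were lower at an unadjusted p under 0.05, with a median of −0.09. That p was reached by 5.94% of all genes, and the 4 became 7 with the replicate block, 8 with length and GC trends removed and 7 without shATGL 3, against 9.41%, 10.7% and 14.1% of all genes. SNU13, which binds the C/D motif, went from 140 to 120 CPM (−0.22, unadjusted p = 0.0190 by edgeR). The H/ACA core proteins NOP10 (66.0 to 51.9 CPM, −0.35, 0.0229) and NHP2 (146 to 122 CPM, −0.26, 0.0256) were lower as well. Without shATGL 3, 6 were called lower and 2, NOP58 and ZNHIT6, higher, against 14.0% of all genes called in either direction. NOP56 belongs to both this list and the protein-coding hosts.

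Factors of nonsense-mediated decay, the pathway that degrades spliced host RNA, showed 7 of 21 below 0 and 14 above 0, with a median of 0.03. With length and GC trends removed, 13 of 21 were below 0, with a median of −0.048. The median over all genes also moved in that fit, from 0.01 to −0.054, so the factors stayed near it. UPF2, an adaptor of the UPF1 helicase, was at 38.2, 43.5 and 35.8 CPM in shNC and at 89.7, 91.7 and 33.5 CPM in shATGL. shATGL 1 and 2 were far above every control and shATGL 3 was below them, so the log2 fold change of 0.87 (unadjusted p = 0.0337 by edgeR) rested on 2 libraries. SMG1, the kinase of UPF1, was at 70.0, 70.0 and 55.2 CPM in shNC and at 105, 114 and 63.5 CPM in shATGL (0.53, unadjusted p = 0.0367 by edgeR). There shATGL 1 and 2 were above every control, and shATGL 3 lay within the range of the controls. MAGOH, a core protein of the exon junction complex, went from 30.7 ± 2.35 to 26.4 ± 1.86 CPM (−0.22, unadjusted p = 0.0470 by edgeR). Without shATGL 3, edgeR called 5 of the factors higher (UPF2, UPF3A, UPF3B, SMG1 and XRN1, the cytoplasmic 5′ to 3′ exonuclease) and none lower. That fit called 14.0% of all genes in either direction. Whether these levels bear on the host RNAs was not tested.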

How the data were processed

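Reads of low quality were taken out with FASTP by the authors, who deposited raw counts per Ensembl gene for 6 libraries, with no normalization. The aligner, counter and strand setting are not given in the sources used here. The submitters' processing notes list the mouse build mm10, while the identifiers are human. Positions and lengths are therefore those of GENCODE 29 (58254 of 61806 identifiers matched). The labels describe both a TRIzol and a column extraction, and an amplification of the cDNA. The tools were R 4.3.3, edgeR 4.0.16 (filterByExpr with a minimum count of 10 and a minimum total of 15, TMM, quasi-likelihood test, Benjamini-Hochberg over 19149 genes), limma 3.58.1 and DESeq2 1.42.0, after checks on simulated data. Standard errors and intervals of fold changes were derived from edgeR's F statistic. Single genes were also compared by exact two-sided permutation. Nothing states that the libraries came from separate cultures, so p-values measure only the spread between these libraries, which may be technical. The members and the other lists were chosen with earlier results of these data known. Named genes were the 10 members, the targeted gene, genes of each other list with an unadjusted p under 0.05 (the 3 smallest where more), the 5 genes most like the members' mean, and genes and snoRNAs overlapping a member. UPF3A, UPF3B, XRN1, SNHG14, NOP58 and ZNHIT6 were named after their values were seen. Alternatives were other normalizations, filters and tests, the replicate number as a block, libraries left out, removal of length and GC trends by natural splines (4 degrees of freedom), and snoRNA counts added to hosts. The other lists under 3 of these, and the non-overlap count without shATGL 3, were chosen after seeing the data.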

Additional observations from a re-analysis of the deposited data

How the results depend on the processing

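Direction held in 15 of 15 alternatives for each member except GAS5, which turned to 0.011 with limma voom and quality weights and ranged from −0.075 to 0.020 when each library was left out, with the highest value without shATGL 3. The number of members called was 0 with all libraries in edgeR and DESeq2 and 4 with limma voom and quality weights (10.8% of all genes called), and it ranged from 0 to 4 when each library was left out, with 4 only without shATGL 3 (14.0% of all genes called). Members lower at an unadjusted p under 0.05 numbered 5 with length and GC trends removed, against 10.7% of all genes, in a fit that moved all genes downward. With plain library totals 3 members were lower without overlap, against 6.07% of all genes, so that count depends on the scaling. The ratio of the highest to the lowest level was 10.6 with the median transcript length. The nonsense-mediated decay list's median moved from 0.03 to −0.048 with length and GC trends removed. The median over all genes moved likewise, from 0.01 to −0.054.

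The replicate numbers were not taken to pair the libraries. Deviations from the group mean correlated at 0.150, 0.368 and 0.479 for the same number over genes of at least 10 CPM, but at 0.0384 for number 1 over genes of at least 1 CPM, and 2 of 3 shATGL libraries correlated best with their own number. With the replicate block 0 members were called and 4 were lower at an unadjusted p under 0.05, SNHG16 being added, against 9.41% of all genes. The snoRNA counts are too low to show a difference, and why they are low was not tested.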
